A study of Mus musculus with 18 samples.

Results

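The Rnf family is the group of mouse genes named for the RING finger, and its transcripts were measured here in round spermatids (RS), the haploid germ cells that go on to elongate into sperm. Members were all genes whose symbol is Rnf followed by a number, with processed pseudogenes left out, and 85 genes of the 54232 in the count table met that rule. Of these 85 genes, 77 had enough reads to be tested and 8 did not. The libraries came from 3 genotypes with 6 libraries each. WT mice carried the unmodified gene. KO mice lack GRTH, the RNA helicase made by Ddx25 that germ cells need to complete spermiogenesis, and KI mice carry a human GRTH with an arginine-to-histidine missense change that leaves the mice without phosphorylated GRTH. RS were isolated from testes of mice aged 75 to 85 days by enzyme digestion and sedimentation through BSA, and all 3 groups were handled that way. The strain is not given in the sources used here, and neither is whether a library came from 1 mouse, so the p-values measure the spread between these libraries, part of which may be technical.

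A RING finger is a zinc-binding fold that holds an E2 enzyme charged with ubiquitin and brings it to a substrate, so most RING proteins act as E3 ubiquitin ligases that decide which proteins are tagged. Ubiquitin tags send proteins to the proteasome, mark broken DNA for repair, or, on histones H2A and H2B, change how chromatin is read. Spermatids use several of these routes while histones are removed and the nucleus is compacted. The family is a family by name and by fold rather than by a single descent, and its members sit in membranes, cytosol and nucleus. Rnf138 is the member this study had already singled out for separate measurement, with its change known, so its direction below is a description of that choice as well as a result.

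The 18 libraries held 18766971 to 26776555 counts each, and 3 counts, the most that an observed 0 allows, correspond to 0.112 to 0.160 CPM, the count scaled to library size. These intervals and floors cover counting error only. Ddx25 itself was at 538 to 607 CPM in WT, 47.7 to 90.9 CPM in KO and 0.0456 to 0.519 CPM in 5 of the 6 KI libraries. KI mice carry a human GRTH, while reads were counted on mouse Ddx25, so these KI values do not measure the human transcript. The study states that the nonphosphorylated protein remains in KI mice. The library labelled KI 4 held Ddx25 within the KO range and therefore goes against its label. Many of the counts that changed when it was left out are given below with and without it. Some libraries of 1 genotype also lay closer to each other than the rest (WT 1 and 2, WT 3 and 4, WT 5 and 6, KO 4 and 5, KI 1 and 2, KI 3 and 5). The closest pair of all crossed the genotypes, KO 2 with the library labelled KI 4, whose median squared difference in counts over genes was 1.59 times that of counting noise, against 2.05 times for KO 4 and 5. All 5 transcripts listed as markers of elongating spermatids (Tnp1, Tnp2, Prm1, Prm2, Prm3) were lower past 1 log2 unit in both mutants. Their sum ran from 9898 to 13744 CPM in WT, from 1203 to 2515 CPM in KO and from 1372 to 2343 CPM in KI. The study describes Tnp2 and Prm2 as already transcribed and stored in RS, so neither is confined to elongating cells. All 6 Leydig cell markers were higher in both, summing to 10.8 to 22.4 CPM in WT, 33.9 to 57.9 CPM in KO and 14.5 to 74.4 CPM in KI. The 6 round spermatid markers (Acrv1, Spaca1 and others) were present in every library, at a sum of 496 to 878 CPM in WT, 378 to 856 CPM in KO and 383 to 544 CPM in KI. Of these 6, 1 was lower in KO and 3 were lower in KI, with a median log2 difference of -0.17 and -0.48, and their part in the falls of Rnf members was not tested. In RNA from a pool of cells, fewer cells of a type and less RNA per cell cannot be told apart.

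The family was densely used in RS. In WT, 71 members had a mean of at least 1 CPM, 51 at least 10 CPM, 16 at least 100 CPM and 5 at least 500 CPM. The 10 highest members held 63.5% of the family's CPM. All 85 genes are annotated as protein coding and lie on 19 chromosomes, with 13 on chromosome 11, 9 on chromosome 4 and 7 on chromosome 5. The 8 members that were not tested (Rnf39, Rnf113a1, Rnf135, Rnf186, Rnf207, Rnf222, Rnf224 and Rnf225) had at most 13 counts in any library and a group mean of at most 0.253 CPM. The family as a whole took 0.593 to 0.667% of the counts in WT, 0.463 to 0.622% in KO and 0.494 to 0.629% in KI.

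Start-site sequence was at hand for 66 members in RefSeq on GRCm38.p6, as windows of 300 bases from 250 before to 50 after the annotated start. The 5 windows below are shown because their members changed in opposite directions and because the windows differ in kind. Rnf133 and Rnf148 are neighbours that were lower in both mutants, Rnf44 was lower, and Rnf2 and Rnf138rt1 were higher. All run 5′ to 3′ on the minus strand. Capitals mark a TATA motif, with the letters TATAAA. They mark the CCAAT box, named for its letters, and the GC box, spelled out after the windows, in the same way. Both strands were searched, so the reverse complement of each is in capitals too. Rnf133 is chr6:23650256-23650555, Rnf148 is chr6:23655087-23655386, Rnf44 is chr13:54693911-54694210, Rnf2 is chr1:151500942-151501241 and Rnf138rt1 is chrX:163761283-163761582.
Rnf133: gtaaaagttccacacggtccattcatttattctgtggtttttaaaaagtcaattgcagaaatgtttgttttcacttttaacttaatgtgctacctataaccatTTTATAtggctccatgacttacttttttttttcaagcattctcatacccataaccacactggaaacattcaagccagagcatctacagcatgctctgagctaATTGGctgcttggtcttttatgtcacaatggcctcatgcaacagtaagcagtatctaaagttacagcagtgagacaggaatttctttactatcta
Rnf148: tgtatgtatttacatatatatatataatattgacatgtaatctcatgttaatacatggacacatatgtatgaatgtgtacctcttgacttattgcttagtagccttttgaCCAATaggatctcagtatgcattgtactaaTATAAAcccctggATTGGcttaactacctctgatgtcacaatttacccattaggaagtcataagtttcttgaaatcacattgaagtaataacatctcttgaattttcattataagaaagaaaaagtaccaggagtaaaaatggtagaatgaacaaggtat
Rnf44: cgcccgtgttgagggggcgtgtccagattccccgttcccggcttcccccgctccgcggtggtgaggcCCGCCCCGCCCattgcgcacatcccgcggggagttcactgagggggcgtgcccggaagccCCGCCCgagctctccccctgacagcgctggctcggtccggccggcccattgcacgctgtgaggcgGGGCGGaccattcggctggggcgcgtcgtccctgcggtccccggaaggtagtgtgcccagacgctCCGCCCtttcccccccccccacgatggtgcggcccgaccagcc
Rnf2: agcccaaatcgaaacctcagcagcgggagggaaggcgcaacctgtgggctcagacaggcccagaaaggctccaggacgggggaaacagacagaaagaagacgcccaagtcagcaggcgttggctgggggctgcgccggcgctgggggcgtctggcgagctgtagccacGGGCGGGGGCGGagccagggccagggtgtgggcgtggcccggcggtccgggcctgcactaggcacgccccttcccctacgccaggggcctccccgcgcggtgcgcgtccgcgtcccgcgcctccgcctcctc
Rnf138rt1: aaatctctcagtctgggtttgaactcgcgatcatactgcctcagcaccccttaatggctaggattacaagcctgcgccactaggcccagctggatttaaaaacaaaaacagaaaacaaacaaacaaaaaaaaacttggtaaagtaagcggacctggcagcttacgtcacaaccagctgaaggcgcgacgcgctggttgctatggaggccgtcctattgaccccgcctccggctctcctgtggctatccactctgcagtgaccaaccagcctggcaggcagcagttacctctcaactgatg

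The window of Rnf133 held 1 CpG and that of Rnf148 none, against 35 CpG and 5 GC boxes (GGGCGG) for Rnf44, and 30 CpG and 2 GC boxes for Rnf2. The window of Rnf138rt1 held none of the 3 motifs and 12 CpG. Across the family, 69.7% of the 66 genes held a GC box, against 38.2% of 27025 genes with such windows. The median window of the family held 20.5 CpG, against 7 for all genes. The 27025 genes were not matched to the family by gene type or level in RS. The 7 untested members with a window had a median of 7 CpG. TATAAA was about as frequent in the family (16.7%) as in all genes (15.7%), and CCAAT likewise (39.4% and 41.1%). Some genes have several windows, and a gene was counted if any of its windows held the motif. Of the 8 genes with a window that were lower in both mutants, 3 held TATAAA (Rnf133, Rnf148 and Rnf181) and 6 held CCAAT. The CCAAT of Rnf44 is in a window not shown. TATAAA of Rnf133 is on the opposite strand, while those of Rnf148 and Rnf181 lie 110 and 67 bases before the start. Of the 7 that were higher in both, none held TATAAA and 2 held CCAAT. These letters are descriptions of the windows and were not tested as binding sites.

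**Figure D1:**
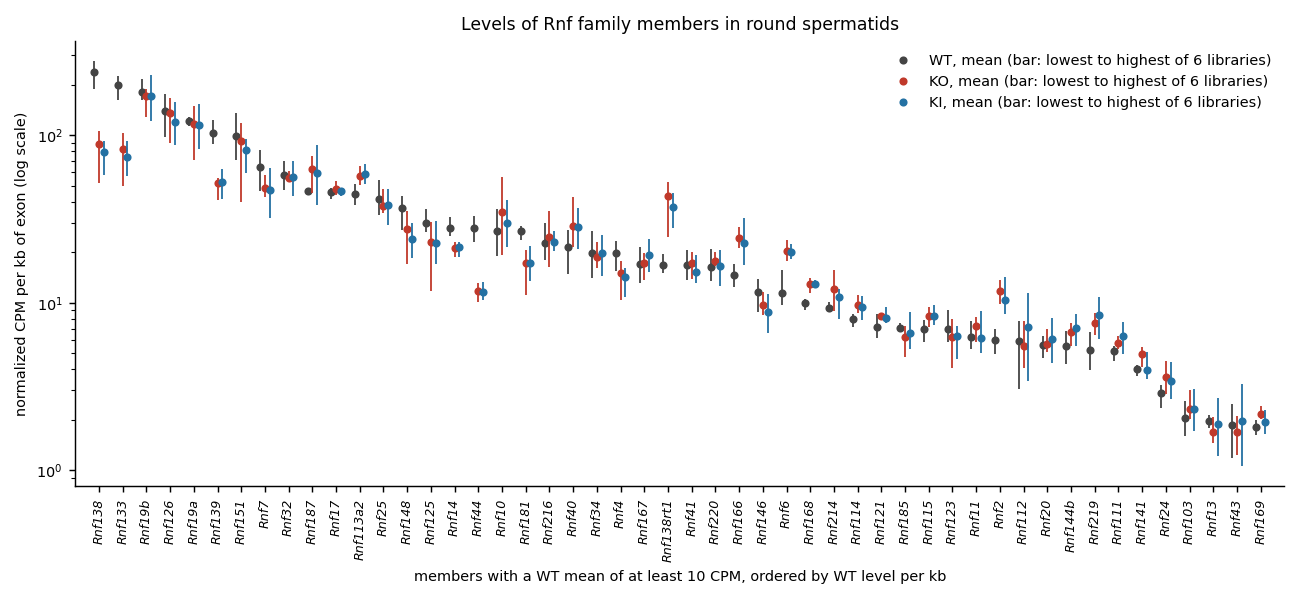
Level of 50 members with a WT mean of at least 10 CPM, as CPM per kb of exon on a log axis. Points are the mean of 6 libraries and lines the range, for WT, KO and KI. With the exon lengths given with the counts, Rnf138 leads in WT and ranks behind Rnf19b, Rnf126 and Rnf19a in both mutants.

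Levels of different genes were set side by side per kb of the exon length given with the counts. On that scale Rnf138 was the most abundant member in WT with 238 ± 28.4 CPM per kb (SD, n = 6). It held the first rank in each of the 6 WT libraries. Rnf133 followed with 200 ± 22.9 CPM per kb and Rnf19b with 182 ± 22.1 CPM per kb. The ranges of these neighbours overlapped, at 190 to 277 for Rnf138, 162 to 226 for Rnf133 and 161 to 215 for Rnf19b, while their order was the same in each of the 6 WT libraries. Rnf126 came next at 139 ± 29.1 CPM per kb, Rnf19a at 121 ± 6.02 CPM per kb and Rnf139 at 104 ± 13.2 CPM per kb. In KO the order was Rnf19b (171 CPM per kb), Rnf126 (135), Rnf19a (116), Rnf151 (92.8), Rnf138 (88.1) and Rnf133 (82.9). In KI it was Rnf19b (171 CPM per kb), Rnf126 (120), Rnf19a (115), Rnf151 (81.3), Rnf138 (79.5) and Rnf133 (74.1). Library by library, Rnf138 ranked from 5 to 6 in KO and from 4 to 5 in KI. Without division by length Rnf138 was also first in WT, while Rnf133 moved to rank 7 and Rnf126 to rank 9. The exon length used for Rnf138 is shorter than its longest transcript in GENCODE M21 (6766 bases). Its level and rank per kb, in WT and in the mutants, therefore depend on the annotation, and other lengths were not tried.

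Rnf138 (ENSMUSG00000024317) encodes a ligase that is recruited to DNA double-strand breaks, where it acts on the resection factor CtIP and on Ku80. It lies on chromosome 18 from 21001341 to 21028224 on the plus strand of GRCm38, with 3110 exon bases given with the counts. In WT it stood at 590 CPM in the lowest library, 745 at the median and 862 in the highest. The KO libraries ran from 162 through a median of 290 to 330 CPM, and the KI libraries from 180 through 268 to 286 CPM. Every mutant library was below every WT library. The difference from WT was -1.43 ± 0.17 on the log2 scale in KO (SE, edgeR quasi-likelihood test, Benjamini-Hochberg adjusted p = 1.2e-06), which left 37.0% of the WT level. In KI it was -1.58 ± 0.17 (edgeR adjusted p = 2.71e-07), which left 33.4%. The 95% interval ran from -1.78 to -1.09 in KO and from -1.92 to -1.24 in KI. KI minus KO was -0.15 on the log2 scale with an interval of -0.48 to 0.19 (edgeR adjusted p = 0.961).

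Against a threshold of 1 log2 unit, Rnf138 passed in KI (edgeR glmTreat, adjusted p = 0.0504) and did not in KO (adjusted p = 0.313). The KI call was lost without WT 3 (adjusted p = 0.143), WT 4 (0.102), KI 3 (0.141) or KI 5 (0.141), and it held without the library labelled KI 4 (0.0551). It was also lost without a filter on low counts (0.136), with close libraries summed (0.615) and with these summed and KI 4 left out (0.801). Over 27 settings of the analysis it was called past 1 log2 unit in 20 for KI and in 1 for KO. The estimate itself moved little over those settings, from -1.63 to -1.48 in KI and from -1.50 to -1.32 in KO. The whole family summed to 6700 ± 437 CPM over WT libraries, 5613 ± 646 over KO and 5439 ± 753 over KI. Without Rnf138 it was 5960 ± 361, 5339 ± 595 and 5191 ± 712 CPM, with no test made of the sums.

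**Figure D2:**
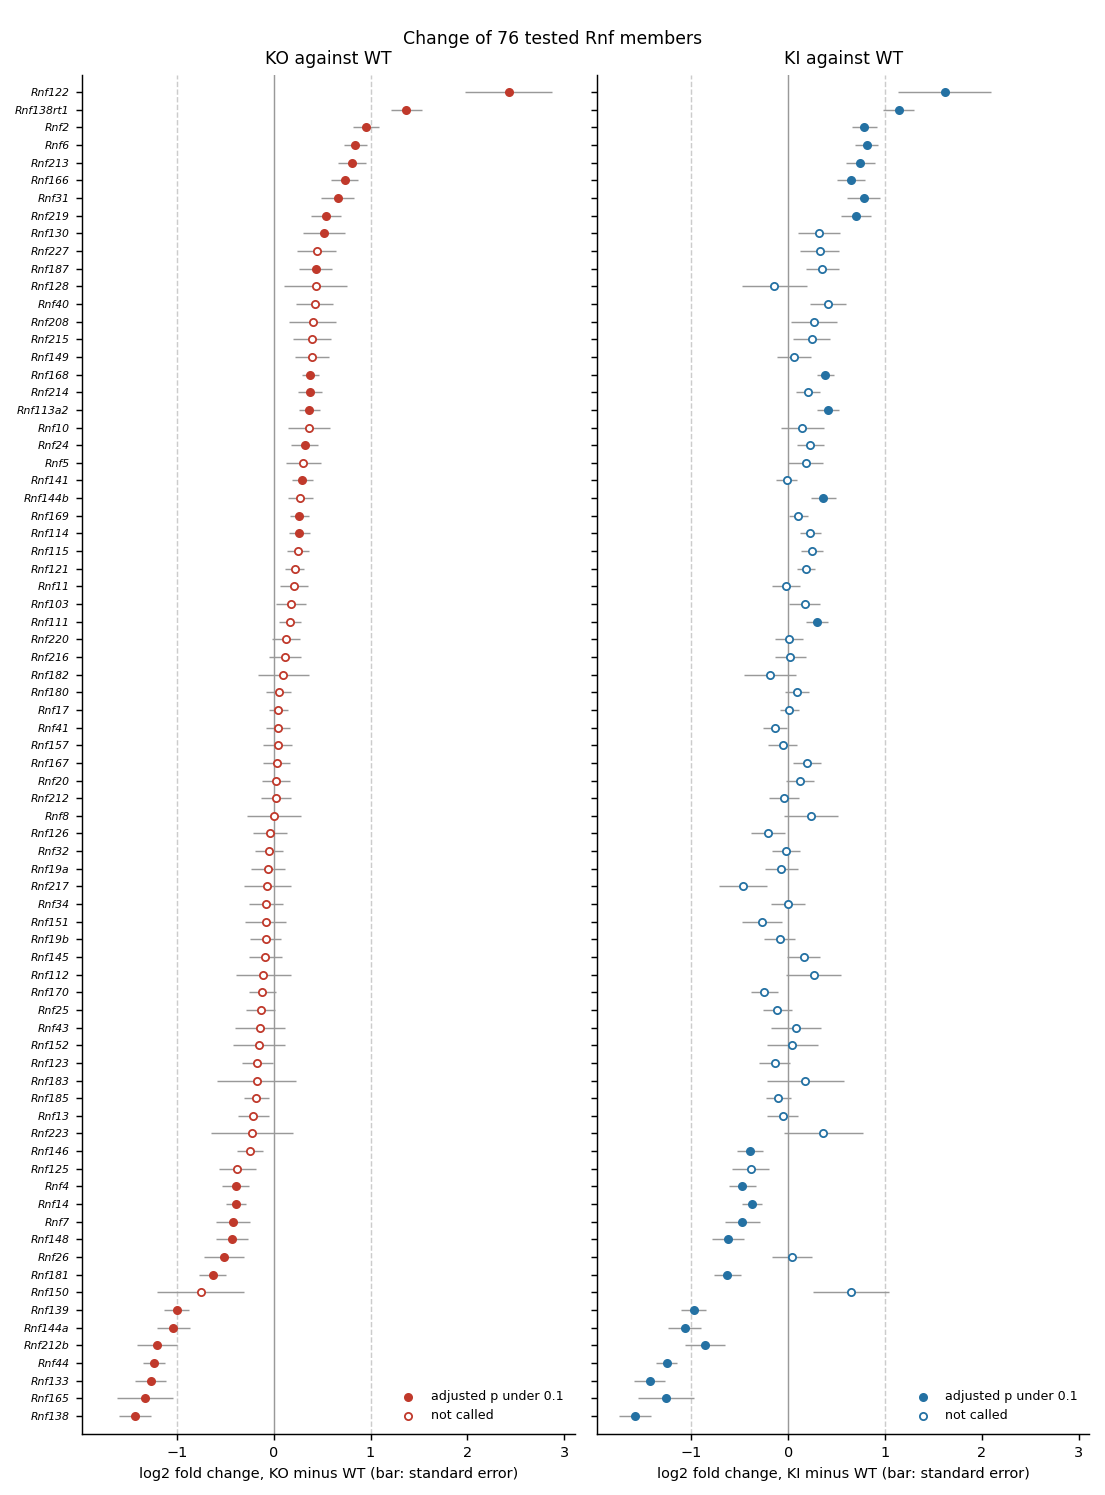
Log2 difference from WT of 76 tested members in KO and in KI, each with its SE, and filled where edgeR called a change of any amount at an adjusted p under 0.1. Both contrasts use the same 6 WT libraries, and Rnf138, Rnf133 and Rnf44 lie at the lower end of both.

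Members moved in both directions in KO. Of the 77 tested, 17 were higher (22.1%) and 14 lower (18.2%) in edgeR at an adjusted p under 0.1 for a change of any amount, where 16.4% of all 21058 tested genes were higher and 13.5% lower. No member was higher or lower past 1 log2 unit in KO, where 0.598% of all genes were higher and 1.13% lower. At an unadjusted p under 0.05 against that threshold edgeR gave 2 higher (Rnf122 and Rnf138rt1) and 2 lower (Rnf138 and Rnf44), and DESeq2 also called none after adjustment. In KI 12 members were higher (15.6%) and 14 lower (18.2%), against 16.1% and 15.4% of all genes. Past 1 log2 unit, Rnf138 was lower in KI and no member was higher in edgeR or DESeq2, also at an unadjusted p under 0.05, against 1.43% lower and 0.522% higher among all genes. In this fit the shares in KI were near those of all genes, and in KO both shares were above them. The 17 higher in KO became 13 in DESeq2, 9 without a filter on low counts and 9 with close libraries summed. Lower members in KO numbered 14, 13 and 10 in these settings. The shares of all genes in these settings were not computed, so the difference in KO is given for the main fit only. The median difference of the members was 0.03 in KO and 0.04 in KI on the log2 scale, beside 0.03 and 0.05 over all tested genes. Without the library labelled KI 4 the counts were 19 higher and 13 lower in KO, and 13 higher and 15 lower in KI.

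Between KI and KO no member was called in either direction in edgeR, where 0.076% of all genes were higher and 0.0237% lower. The lowest adjusted p of a member was 0.507, or 0.127 without the library labelled KI 4, and DESeq2 called none either. Before adjustment 4 members were under 0.05 in edgeR, which were Rnf150, Rnf141, Rnf26 and Rnf122. Rnf150 stood at a mean of 0.190 CPM in KO and 0.519 CPM in KI, and Rnf141 at 50.5 and 40.8 CPM. The 2 contrasts with WT share the WT libraries, so values for KO and KI are set side by side without a test of their likeness. There were 13 members lower in both mutants and 10 higher in both. A further 7 were higher in KO alone (Rnf24, Rnf114, Rnf130, Rnf141, Rnf169, Rnf187 and Rnf214) and Rnf26 was lower in KO alone. Rnf111 and Rnf144b were higher and Rnf146 lower in KI alone, and 43 were called in neither. That a member was called in 1 mutant alone was not tested as a difference between them. The share of all genes called in both mutants, or in 1 alone, was not computed, so these counts describe the members only. These joint counts use all 18 libraries and were not recomputed without the library labelled KI 4. Without that library, Rnf7 lost its KO call, and Rnf121 and Rnf149 were called higher in KO. In KI, Rnf40 was then called higher and Rnf217 lower.

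**Figure D3:**
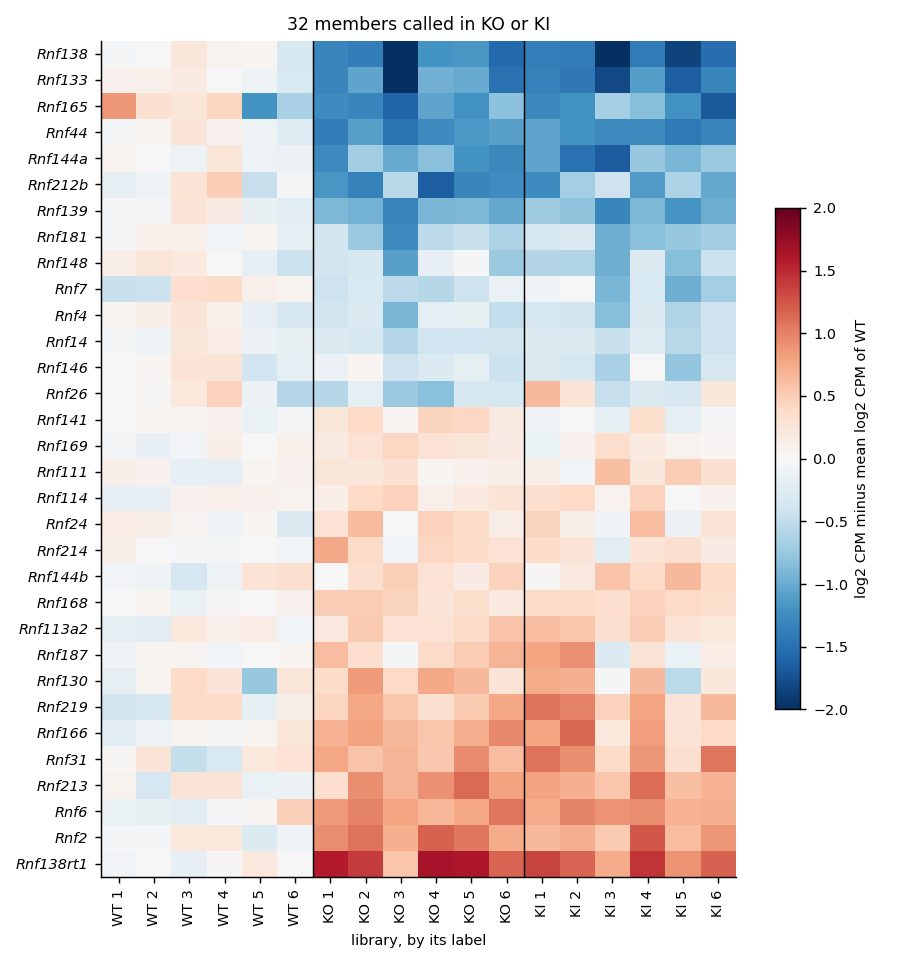
Log2 CPM of 32 called members in each of the 18 libraries, as the difference from the WT mean and with the colour scale held between -2 and 2. Not every called member is drawn, and Rnf122 is left out for its near absence of counts in WT.

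Lower and higher members differed in level. The 14 members lower in KO had a median WT level of 92.1 CPM, and the 17 higher ones 24.9 CPM, although Rnf165, Rnf26, Rnf212b and Rnf144a were lower with a WT mean under 10 CPM. Of the 16 members with at least 100 CPM in WT, 6 were lower and none higher in KO, and the same counts held in KI. At that level 26.0% of all genes were lower in KO and 29.2% in KI, and 6.59% and 8.54% were higher. Of the 35 members from 10 to 100 CPM, 4 were lower and 13 higher in KO, and 5 lower and 9 higher in KI, against 16.3% and 18.5% of genes in KO and 19.2% and 20.1% in KI. Of the 26 members under 10 CPM, 4 were lower and 4 higher in KO, and 3 and 3 in KI. At that level 9.81% of all genes were lower and 17.2% higher in KO, and 11.1% and 15.5% in KI. Without the library labelled KI 4 the KO counts were 3 lower and 14 higher from 10 to 100 CPM and 4 lower and 5 higher under 10 CPM, and in KI 1 member at 100 CPM or more was higher and 4 under 10 CPM were lower. Groups did not overlap at all for 19 of the 77 members (24.7%) between KO and WT, and 13.1% of all genes, and for 14 (18.2%) between KI and WT, and 13.9% of all genes, and the latter count was also 14 without the library labelled KI 4.

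**Figure D4:**
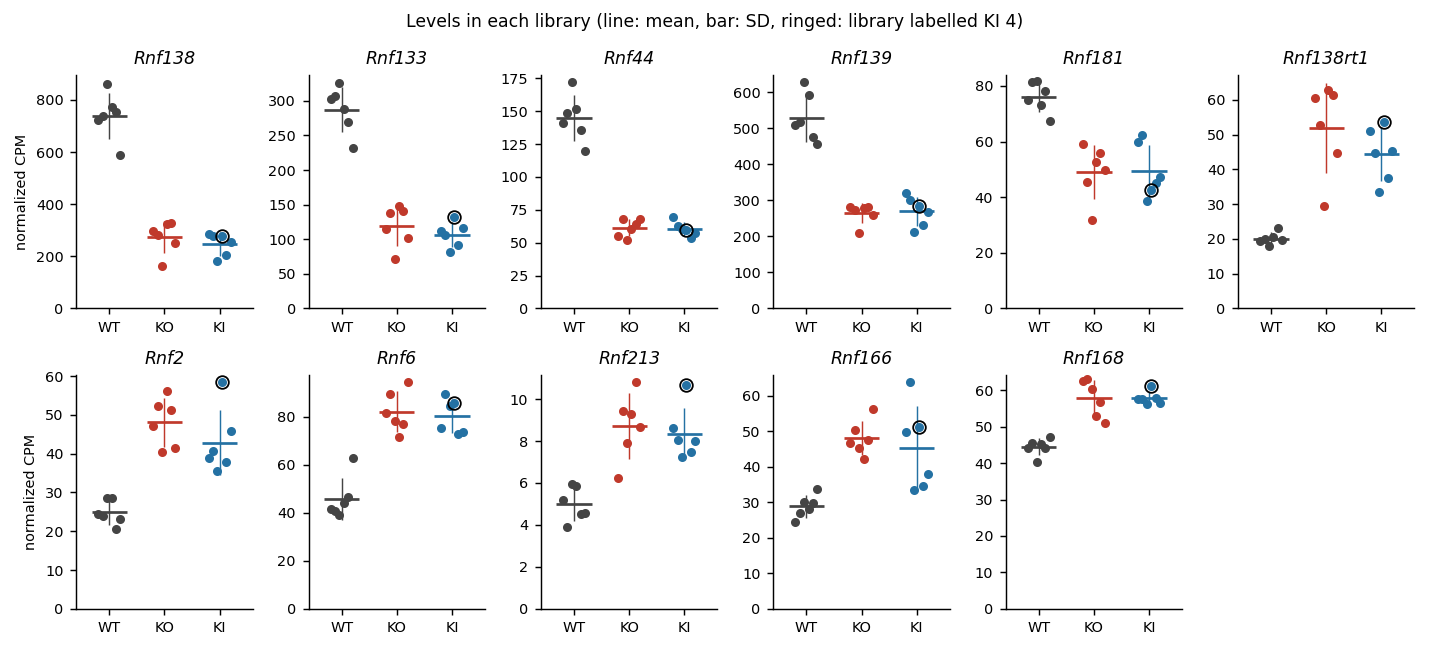
CPM in each library for 11 members, with WT, KO and KI side by side. A ring marks the library labelled KI 4, and the mutant libraries of Rnf138, Rnf133 and Rnf44 lie below all 6 WT libraries.

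Of the members that act in membranes, 2 of 9 with a protease-associated domain and 1 of 13 others were lower in each mutant, beside 13.5% of all genes in KO and 15.4% in KI. Rnf133 is a testis ligase of the endoplasmic reticulum with a protease-associated domain. It lies on chromosome 6 from 23648869 to 23650305 on the minus strand. It stood at 232 to 325 CPM in WT (median 296), 71.8 to 148 CPM in KO (median 126) and 81.7 to 133 CPM in KI (median 109). Every mutant library of Rnf133 was below every WT library. It fell by 1.27 ± 0.16 on the log2 scale in KO (edgeR adjusted p = 4.44e-06) and by 1.43 ± 0.16 in KI (edgeR adjusted p = 7.59e-07). Past 1 log2 unit it was called in KI in the fit without KO 3 (edgeR adjusted p = 0.0795), and with all libraries it was not (0.25).

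Its neighbour Rnf148, of the same protease-associated type, lies on chromosome 6 from 23653898 to 23655136, also on the minus strand. Both overlap Cadps2 on the same strand, which had 3.59 CPM in WT, so reads of Cadps2 could enter their counts. Rnf148 stood at 33.6 to 53.5 CPM in WT (median 47.5), 21.2 to 43.9 CPM in KO (median 35.6) and 22.9 to 37.0 CPM in KI (median 30.0). It fell by 0.62 ± 0.16 on the log2 scale in KI (edgeR adjusted p = 0.0073). In KO the difference was -0.43 ± 0.16 (edgeR adjusted p = 0.0621), and its call was lost when any 1 of WT 1, WT 2, KO 3 or KO 6 was left out, at an adjusted p of 0.112 to 0.136. Of these neighbours Rnf133 had the larger difference in both mutants, without a test between them. Rnf139, an endoplasmic reticulum ligase also known as TRC8, stood at 455 to 628 CPM in WT (median 513), 209 to 282 CPM in KO (median 277) and 213 to 321 CPM in KI (median 275). It fell to 49.9% of the WT level in KO (95% interval of the log2 difference -1.27 to -0.73, edgeR adjusted p = 5.56e-06) and by 0.97 ± 0.13 on the log2 scale in KI (edgeR adjusted p = 6.96e-06), with no overlap between WT and either mutant.

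Among cytosolic members Rnf44 was lower in every mutant library than in every WT library. Rnf44 stood at 120 to 172 CPM in WT (median 145), 52.4 to 68.0 CPM in KO (median 62.5) and 53.7 to 69.6 CPM in KI (median 60.0). It fell by 1.24 ± 0.11 on the log2 scale in KO (edgeR adjusted p = 2.84e-08) and by 1.26 ± 0.11 in KI (1.94e-08). Rnf181 fell by 0.63 ± 0.14 in KO (edgeR adjusted p = 0.00223) and by 0.63 in KI (0.0021), from 67.5 to 81.6 CPM in WT (median 76.6) to 31.9 to 59.2 CPM in KO (median 51.2) and 38.7 to 62.2 CPM in KI (median 46.1). Among the 11 members of this list none was higher, and 3 were lower in KO and 4 in KI, beside 13.5% and 15.4% of all genes.

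Rnf4, a ligase that recognises SUMO-tagged proteins, differed from WT by -0.39 in KO (edgeR adjusted p = 0.0433) and -0.47 in KI (adjusted p = 0.0139). Rnf165, which resembles Arkadia, was low throughout at 0.568 to 2.38 CPM in WT (median 1.57), 0.427 to 0.736 CPM in KO (median 0.553) and 0.408 to 0.821 CPM in KI (median 0.560), so its groups overlapped although it passed the test at -1.33 ± 0.29 in KO (edgeR adjusted p = 0.00171) and -1.26 in KI (0.00227). Rnf111, Arkadia itself, was higher in KI alone by 0.30 (edgeR adjusted p = 0.0567). Of the 8 members with the RBR arrangement of RING domains, 1 was higher and 2 lower in KO, and 2 and 2 in KI, or 2 and 3 in KI without the library labelled KI 4. Among all genes 16.4% were higher and 13.5% lower in KO, and 16.1% and 15.4% in KI. Rnf31, which builds linear ubiquitin chains, stood at 2.02 to 3.45 CPM in WT (median 3.07), 4.12 to 5.41 CPM in KO (median 4.42) and 3.55 to 5.96 CPM in KI (median 5.30), and rose by 0.66 ± 0.17 in KO (edgeR adjusted p = 0.00699) and 0.78 in KI (0.00161). Rnf144a fell by 1.04 ± 0.17 in KO (edgeR adjusted p = 9.55e-05) and by 1.07 in KI (5.73e-05), from 5.38 to 6.84 CPM in WT (median 5.62). The abundant RBR members Rnf19a and Rnf19b did not pass the test. Rnf19b differed by -0.08 in KO with an interval of -0.41 to 0.24, and Rnf19a by -0.06 with an interval of -0.42 to 0.30.

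The 5 members that share a C2HC zinc finger arrangement with Rnf138 went different ways. Rnf138 was lower, while Rnf138rt1, an X-linked relative named as a retrogene of it, and Rnf166 were higher. Rnf138rt1 lies on chromosome X from 163760139 to 163761329 on the minus strand. It stood at 17.9 to 23.3 CPM in WT (median 19.8), 29.5 to 62.9 CPM in KO (median 56.5) and 33.5 to 53.7 CPM in KI (median 45.0), with every mutant library above every WT library. It rose by 1.37 ± 0.16 in KO (edgeR adjusted p = 1.34e-06) and by 1.14 ± 0.16 in KI (1.27e-05). Past 1 log2 unit it was called in KO without KO 3 (edgeR adjusted p = 0.0366) and was not with all libraries (0.524). Of 1142 distinct stretches of 50 bases in its transcript, 0 occur in that of Rnf138. The CPM of Rnf138 was 37.1 ± 6.31 times that of Rnf138rt1 in WT, 5.31 ± 0.237 times in KO and 5.58 ± 0.365 times in KI (SD, n = 6), so the ratio ran from 29.8 to 48.2 in WT and from 4.93 to 6.25 in the mutants. Within genotypes, with each gene centred on its genotype mean over the 18 libraries, their log2 levels gave r = 0.87, where the points share library and depth.

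**Figure D5:**
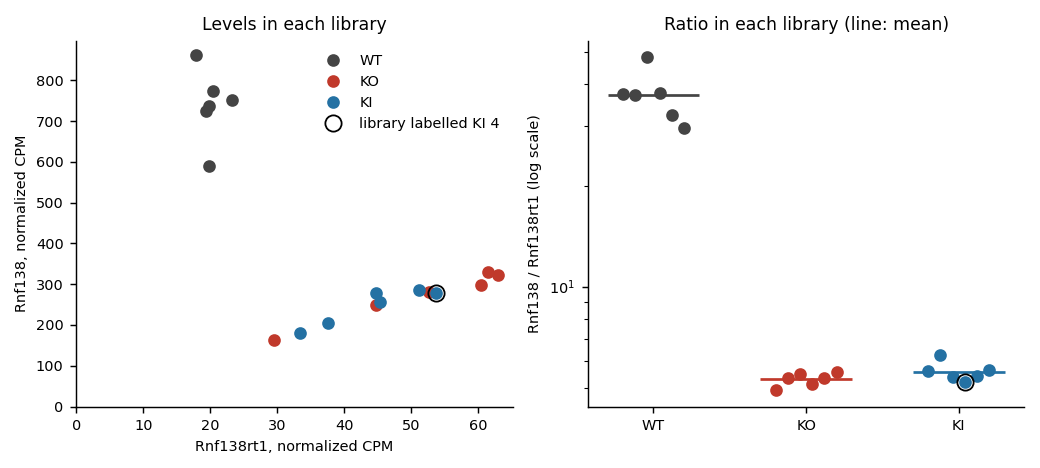
CPM of Rnf138 against CPM of Rnf138rt1 in the 18 libraries, and the ratio of Rnf138 to Rnf138rt1 by genotype on a log axis. WT libraries lie at high Rnf138 and low Rnf138rt1, and the ratio in every mutant library is below that of every WT library.

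Rnf166 stood at 24.6 to 33.9 CPM in WT (median 29.0), 42.2 to 56.2 CPM in KO (median 47.1) and 33.5 to 64.0 CPM in KI (median 44.0), and rose by 0.73 ± 0.14 in KO (edgeR adjusted p = 0.000618) and by 0.65 in KI (0.00176), although its KI range reached into that of WT. Rnf114 passed in KO at 0.26 ± 0.11 (edgeR adjusted p = 0.0886), a call lost when any 1 of WT 1, WT 2, WT 3, WT 5, KO 2, KO 3, KO 5 or KO 6 was left out (0.102 to 0.179). In KI it differed by 0.23 (edgeR adjusted p = 0.134). Rnf125, known for tagging the RNA sensor RIG-I, differed by -0.37 in KO (edgeR adjusted p = 0.18) and by -0.39 in KI (adjusted p = 0.156) and was not called. The list as a whole had 3 higher and 1 lower in KO, and 2 and 1 in KI. Beside these, 16.4% of all genes were higher and 13.5% lower in KO, and 16.1% and 15.4% in KI.

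Of 6 members that modify chromatin, 3 were higher and none lower in KO, and 2 were higher and none lower in KI, or 3 in KI without the library labelled KI 4, beside 16.4% and 16.1% of all genes that were higher. Rnf2, the catalytic subunit Ring1B of the Polycomb complex that tags histone H2A, stood at 20.5 to 28.7 CPM in WT (median 24.2), 40.5 to 56.2 CPM in KO (median 49.2) and 35.5 to 58.5 CPM in KI (median 39.8), with no overlap. It rose by 0.95 ± 0.13 in KO (edgeR adjusted p = 1.24e-05) and by 0.79 ± 0.13 in KI (0.000104), or 0.68 in KI without the library labelled KI 4. Rnf168, which tags H2A at DNA breaks, stood at 40.3 to 47.2 CPM in WT (median 44.7), 51.0 to 63.1 CPM in KO (median 58.5) and 56.2 to 61.3 CPM in KI (median 57.6), and rose by 0.38 ± 0.09 in KO (edgeR adjusted p = 0.00331) and by 0.38 in KI (0.00283). Rnf169, which binds the marks that Rnf168 makes, rose in KO by 0.27 ± 0.10 (edgeR adjusted p = 0.0605), a call lost without WT 1, WT 2, WT 3 or KO 3 (0.102 to 0.147), and differed by 0.10 in KI (adjusted p = 0.507).

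Rnf20 and Rnf40 together tag histone H2B. Rnf40 differed by 0.42 in KO (edgeR adjusted p = 0.115) and by 0.41 in KI (0.12), near the threshold. It was called in KI without WT 2, WT 6, KO 1 or the library labelled KI 4. With 2 genotypes only and with the replicate block it was called in KI too. In KO it was called without WT 1, WT 2, KO 2 or KO 3 and with the replicate block. Rnf20 differed by 0.03 in KO and by 0.12 in KI. Rnf8, the ligase that starts the response upstream of Rnf168, was low at 2.07 to 6.30 CPM in WT (median 4.13) and differed by -0.00 in KO with an interval of -0.58 to 0.58. Leydig cell markers were also higher in both mutants, as given above. Of 7 spermatogonial markers 2 were higher in KO and 1 in KI, or 3 and none without the library labelled KI 4, with a sum of 29.4 to 39.9 CPM over WT, 33.1 to 70.6 CPM over KO and 20.8 to 72.9 CPM over KI. Of 8 spermatocyte markers 3 were higher and 1 lower in each mutant, or 2 and 1 in KI without the library labelled KI 4, with a sum of 1027 to 1274 CPM in WT, 1090 to 1326 CPM in KO and 1109 to 1440 CPM in KI, and of 7 macrophage and endothelial markers 2 were higher in each, with a sum of 15.9 to 19.9, 20.6 to 32.8 and 24.9 to 33.5 CPM. Of 7 Sertoli cell markers none was higher, while 1 was lower in KO and 2 in KI. Their sum was 13.6 to 24.1 CPM in WT, 9.57 to 19.6 CPM in KO and 10.4 to 20.5 CPM in KI. Of 3 tested markers of peritubular and red blood cells, 1 was higher and 1 lower in each mutant. Without the library labelled KI 4, none of these 3 was higher and 1 was lower in KI. The part of these cells in the rises of Rnf members was not tested.

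Other higher members were Rnf6, Rnf213, Rnf219 and Rnf122. Rnf6, which tags the androgen receptor, stood at 39.2 to 63.0 CPM in WT (median 42.7), 71.6 to 94.6 CPM in KO (median 80.0) and 73.0 to 89.7 CPM in KI (median 79.9), and rose by 0.84 ± 0.12 in KO (edgeR adjusted p = 2.09e-05) and by 0.81 in KI (2.82e-05). Rnf213, a very large ATPase with a RING finger, stood at 3.90 to 5.95 CPM in WT (median 4.86), 6.22 to 10.8 CPM in KO (median 8.96) and 7.26 to 10.7 CPM in KI (median 8.03), and rose by 0.81 ± 0.15 in KO (edgeR adjusted p = 0.000355) and by 0.74 in KI (0.000715). Rnf219 rose by 0.54 ± 0.16 in KO (edgeR adjusted p = 0.0154) and by 0.70 in KI (0.00207). Rnf122 had 0 to 5 counts per library in WT, 8 to 22 in KO and 3 to 15 in KI. It was called higher in KO (edgeR adjusted p = 0.000308) and in KI (0.0136), and past 1 log2 unit in KO without WT 4, KO 3 or KI 3 (0.0614, 0.0812 and 0.0864) but not with all libraries (0.115). With so few counts in WT, it entered the test only through mutant libraries, where it was high. The counts of higher members in KO and KI include it. It was no longer among the called members with at least 10 counts in every library or with 2 genotypes only. At so few counts no fold is given for it.

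Of 8 members known from germ cells, 1 was higher and 3 lower in KO, and none higher and 3 lower in KI (all genes 16.4% higher and 13.5% lower in KO, 16.1% and 15.4% in KI). Rnf133 and Rnf148 are given above. Rnf212b, a factor of meiotic crossovers, stood at 2.84 to 5.48 CPM in WT (median 3.76), 1.25 to 2.66 CPM in KO (median 1.60) and 1.63 to 2.92 CPM in KI (median 2.18), and fell by 1.21 ± 0.21 in KO (edgeR adjusted p = 0.000159) and by 0.86 ± 0.20 in KI (0.00298). Its relative Rnf212 differed by 0.02 in KO and by -0.04 in KI. Rnf141, a testis gene, was higher in KO by 0.29 (edgeR adjusted p = 0.0505), a call lost without WT 5, KO 2, KO 4 or KO 5 (0.104 to 0.114), and differed by -0.02 in KI. Rnf17, a Tudor protein of germ cells, stood at 260 to 304 CPM in WT (median 290), 274 to 333 CPM in KO (median 292) and 270 to 300 CPM in KI (median 295). It differed by 0.05 in KO with an interval of -0.15 to 0.25, and by 0.01 in KI with an interval of -0.19 to 0.21. Rnf32 and Rnf151, the latter known from the acrosome, differed by -0.05 and -0.08 in KO and by -0.02 and -0.27 in KI, and were not called. The germ cell members therefore included both clear falls and abundant members for which no change was called.

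Several genes followed Rnf138 across the 18 libraries. By Pearson r on log2 CPM, the 5 closest of all genes were Otub2 (0.997), 1700001C19Rik (0.997), Fam187b (0.996), Gsg1 (0.995) and Cdc34 (0.994). Among the closest members were Rnf133 (0.989), Rnf139 (0.983), Rnf44 (0.958) and Rnf181 (0.921). Within genotypes the values for Rnf133 and Rnf139 were 0.918 and 0.893, and for Rnf44 0.588. The points share library and depth, and no p is given.

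The remaining called members had smaller differences. Rnf113a2, an autosomal relative of a splicing-associated X-linked gene, rose by 0.37 in KO (edgeR adjusted p = 0.0192) and by 0.41 in KI (0.00873). It overlaps Bbof1 on the same strand, which had 378 CPM in WT and 381 CPM in KO. Reads of Bbof1 could therefore enter the counts of Rnf113a2, and their part in its rise was not tested. Rnf14 fell by 0.39 in KO (edgeR adjusted p = 0.00638) and by 0.37 in KI (0.00812), from 87.6 to 114 CPM in WT (median 93.5) to 65.6 to 80.7 CPM in KO (median 74.8) and 66.0 to 81.2 CPM in KI (median 76.9), so its groups did not overlap. Rnf7, a subunit of cullin ligases, differed by -0.42 in KO (edgeR adjusted p = 0.0934) and -0.47 in KI (0.0557), calls that were lost in 11 and 5 of the 18 fits with 1 library left out. Rnf214 rose in KO by 0.38 ± 0.12 (edgeR adjusted p = 0.0275) and kept that call in all 18 fits, but lost it without a filter on low counts and with close libraries summed. It differed by 0.20 in KI (0.249). The KO calls of Rnf24, Rnf26, Rnf130 and Rnf187 were lost in 11, 7, 7 and 7 of the 18 fits at an adjusted p of up to 0.240. Of the KI calls, that of Rnf111 was lost without WT 4, KI 3 or KI 5, that of Rnf144b without KI 5 and that of Rnf146 without WT 3. Of the 9 protease-associated membrane members, 1 was higher in KO (2 without the library labelled KI 4) and none in KI. Of 13 other membrane members, 2 were higher in KO (3 without that library) and 1 in KI. Among all genes 16.4% were higher in KO and 16.1% in KI.

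The ubiquitin pathway around the family was mixed. The counts over the whole list were not recomputed without the library labelled KI 4. Of 96 listed genes, 93 were tested, of which 23 were higher and 10 lower in KO, and 18 and 11 in KI, where 16.4% and 13.5% of all genes were higher and lower in KO, and 16.1% and 15.4% in KI. Among 13 E2 enzymes, which hand ubiquitin to RING ligases, none was higher and 5 were lower in both mutants (Ube2b, Ube2k, Ube2n, Ube2v2 and Ube2w), or 6 in KI without the library labelled KI 4. Ube2k fell the most, from 286 CPM in WT to 71.6 CPM in KO and 66.2 CPM in KI, by 2.11 ± 0.14 on the log2 scale in KI, and was past 1 log2 unit in both. Znrf4 fell from 238 CPM to 88.4 and 76.9 CPM and was past 1 log2 unit in KI (edgeR adjusted p = 0.0194) but not in KO (0.268). Rbbp8 and Xrcc5, which encode CtIP and Ku80, differed by 0.21 and 0.20 in KO and by -0.17 and 0.18 in KI and were not called. Of 19 partners of Rnf2 in Polycomb complexes, 7 were higher and 1 lower in KO, and 5 and 2 in KI, or 3 and 1 in KI without the library labelled KI 4. Bmi1, one of those partners, fell by 1.36 in KO and by 1.44 in KI, from 256 CPM in WT to 94.2 CPM in KI.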

How the data were processed

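RNA of round spermatids (RS) was sequenced as 18 libraries (WT, KO and KI, 6 each) without polyA selection. Whether each library came from a separate preparation is not stated. The authors deposited raw counts per gene, whole numbers with no normalization. Per the study's methods and the submitters' processing notes, reads were trimmed with cutadapt 3.4, aligned to GRCm38 with STAR 2.7.8a and counted strand-specifically with Subread 2.0.1. Reads from overlapping genes on the same strand cannot be separated in such counts. Of the members, 30 overlap another gene on the same strand.

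Counts were analysed in R 4.3.3 with edgeR 4.0.16. Low genes were removed (filterByExpr), libraries were scaled by TMM, and one quasi-likelihood model with genotype as its only term was fitted to all 18 libraries and 21058 genes. A change of any amount (glmQLFTest) and a change past 1 log2 unit (glmTreat) were called at a Benjamini-Hochberg adjusted p under 0.1 over all tested genes. Libraries held 18766971 to 26776555 counts, which sets the precision of low members. Depth intervals cover counting error only.

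Named were Rnf138, members past 1 log2 unit, the 6 largest rises and falls among called members in each contrast, the C2HC, germ cell and chromatin lists, the 6 highest in WT per kb, the 5 members and 5 genes most like Rnf138, and pathway genes past 1 log2 unit. A few called members outside that rule (Rnf4, Rnf111, Rnf219 and those listed by contrast, with Bmi1, Rbbp8 and Xrcc5) were named after their values were seen. Members and lists were chosen with earlier results of these data known. Some genes that meet the rule are counted but not reported here. The script was tested on simulated data.

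Alternatives were DESeq2 1.42.0, its size factors, no filter or 10 counts in every library, 2 genotypes only, the replicate number as a block, close libraries summed, each library left out, no library labelled KI 4, and an adjusted p under 0.05. The interval form of glmTreat, and close libraries summed with the library labelled KI 4 left out, were added after seeing the data. Same-numbered libraries deviated together with correlations of -0.44 to 0.48, so numbers were not taken as pairs.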

Additional observations from a re-analysis of the deposited data

Results flagged for a closer look

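In 7 of the 96 sets of 6 libraries examined (7.29%), 1 library stood apart from the other 5 by more of the range than Dixon's 95% critical value, where chance gives about 1 in 20. KO 3 held 3 of them: Rnf139 at 209 CPM (nearest library 260), Rnf19b at 367 CPM (nearest 484) and Rnf212b at 2.66 CPM (nearest 1.74). The library labelled KI 4 held Rnf141 at 52.3 CPM (nearest 40.8) and Rnf168 at 61.3 CPM (nearest 58.0). Rnf212 stood at 4.96 CPM in KO 1 (nearest 3.88), and Rnf6 at 63.0 CPM in WT 6 (nearest 46.7). The family also took its lowest share of counts in KO 3, 0.463%.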

How the results depend on the processing

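Counts of members changed by any amount in KO moved most. The 17 higher became 9 without a filter on low counts, 9 with close libraries summed, 8 with these summed and the library labelled KI 4 left out, and 11 at an adjusted p under 0.05. The 14 lower in KO became 9 with close libraries summed and the library labelled KI 4 left out. The 14 lower in KI became 9 with close libraries summed and 7 when the library labelled KI 4 was also left out. Past 1 log2 unit, the 0 higher and 0 lower in KO became 1 (Rnf122) and 1 (Rnf138) with the interval form of glmTreat, and the 1 lower in KI became 2 (Rnf138 and Rnf133) with that form and 0 without a filter, with close libraries summed, with these summed and KI 4 left out, and at an adjusted p under 0.05.

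With 1 library left out, members ranged from 12 to 19 higher and 11 to 14 lower in KO, from 12 to 17 higher and 12 to 15 lower in KI, and 0 in KI against KO. Past 1 log2 unit the range was 0 to 2 higher in KO and 0 to 2 lower in KI. In all 18 such fits 11 of the 17 higher and 11 of the 14 lower in KO kept their call, as did 10 of the 12 higher and 12 of the 14 lower in KI. With the replicate block the counts were 17 higher and 12 lower in KO, 13 and 15 in KI, and 1 past 1 log2 unit in KI (Rnf138, -1.60, edgeR adjusted p = 0.0487), and the numbers share no stated batch. DESeq2 gave 13 higher and 14 lower in KO, and 13 and 14 in KI. Over 1786 recomputed log2 differences of 32 named members, none changed sign after being called, while 24 lost and 6 gained a call under other settings, and 20 lost and 15 gained one with 1 library left out. The cause of these losses was not tested. Depth limits members under about 1 CPM, such as Rnf122 and Rnf150.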
